A study of Homo sapiens with 117 samples.

Results

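CTCF binding was compared between IDH1 R132H and IDH1 WT DIvA cells after double-strand breaks (DSBs) had been induced, in 8 peak lists, 4 of each genotype. They were chosen by their labels (CTCF ChIP-seq, 4-OHT, no TET1 construct) from the 24 lists with a file in a series of 117 samples, and in all 8 the run name written inside the list named the same genotype as the label. DIvA is a line derived from U2OS, a human osteosarcoma cell line, that carries the restriction enzyme AsiSI fused to an estrogen receptor domain. Every cell compared here carried that enzyme and received 300 nM 4-OHT for 4 h, which brings AsiSI into the nucleus to cut GCGATCGC. The groups differ in the IDH1 that was introduced by lentivirus, WT or R132H. All lists come from this cell line, the labels do not say whether the numbered replicates are separate cultures, and the published methods state the number of replicates of these libraries in more than 1 way, so the p-values may measure technical spread.

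CTCF is a zinc finger protein that stops the cohesin complex as it extrudes chromatin loops, and so sets the borders of topologically associating domains. IDH1 R132H makes D-2-hydroxyglutarate, which inhibits the TET enzymes that remove methyl groups from cytosine, and methylation of CG dinucleotides inside some CTCF motifs weakens its binding. The comparison asks whether CTCF sits at different places in the mutant cells once breaks are present, and whether the places near AsiSI sites differ.

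The core of the CTCF motif was searched on both strands as CC, any 3 bases, AG, any 2 bases, GGC, and was found within 50 bp of the summit at 43.6% of the tested sites against 1.14% of windows of the same size 1000 bp away. The sequences of 9 sites that carry it and that the results return to, 40 bases each from GRCh38 on the strand of the motif with the core in capitals, show how the core varies among sites that were lower in IDH1 R132H (the lines from TACR1 to ATM), higher in it (SRRM4), or at the top of every list (the subtelomere of chromosome 16).
TACR1 (chr2:75199718-75199757, + strand): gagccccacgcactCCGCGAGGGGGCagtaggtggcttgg
TMEM63C (chr14:77125096-77125135, - strand): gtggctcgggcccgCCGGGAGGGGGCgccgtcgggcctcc
DVL1 (chr1:1344781-1344820, + strand): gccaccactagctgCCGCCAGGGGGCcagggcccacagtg
PLAGL1 (chr6:143942273-143942312, + strand): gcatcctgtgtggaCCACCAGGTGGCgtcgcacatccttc
KIT (chr4:54683787-54683826, + strand): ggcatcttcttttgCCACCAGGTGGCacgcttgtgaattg
DNMT3B (chr20:32778621-32778660, - strand): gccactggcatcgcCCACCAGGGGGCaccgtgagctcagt
ATM (chr11:108223002-108223041, + strand): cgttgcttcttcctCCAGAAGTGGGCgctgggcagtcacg
SRRM4 (chr12:118850408-118850447, + strand): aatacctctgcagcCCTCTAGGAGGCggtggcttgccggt
chromosome 16 end (chr16:10952-10991, - strand): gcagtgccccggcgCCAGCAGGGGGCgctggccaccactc
A CG lies in the core, or across its last base and the next, at TACR1, TMEM63C, DVL1, PLAGL1, ATM, SRRM4 and the chromosome 16 end, and not at KIT or DNMT3B. The PLAGL1 and KIT cores are the same 12 bases and differ in what follows them.

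The lists held 235991, 346552, 208914 and 236382 peaks in IDH1 WT and 347911, 322873, 277115 and 316470 peaks in IDH1 R132H, in the order of replicates 1 to 4. The steps between their fold values give an estimated 70.9M to 84.7M reads in IDH1 WT and 23.7M to 34.7M in IDH1 R132H, if the usable genome is 2.7 Gb, and the shortest peak of a list, which equals its fragment length, was 143 to 191 bp in IDH1 WT and 121 to 127 bp in IDH1 R132H. Depth and fragment length therefore did not overlap between the genotypes, and their part in any difference cannot be told apart from that of the genotype. Replicates 3 and 4 of each genotype differed by less than the sampling noise of their reads and were counted as 1 sample, so that 3 samples stood against 3 and the smallest p of a two-sided exact permutation test was 0.1. To set lists of unequal size on one footing, the 20000 peaks of each list with the highest fold were compared.

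Most strong sites were shared. Summits within 100 bp were joined into 26148 sites, of which 14573, or 72.9% of a list, were among the 20000 strongest in all 8 lists. Lists of IDH1 WT shared 90.03% to 96.3% of their strong sites with each other, lists of IDH1 R132H 92.5% to 94.7%, and lists of different genotype 80.4% to 85.7%, so no pair across the genotypes reached the overlap of any pair within a genotype. In all 4 IDH1 WT lists and no IDH1 R132H list were 1368 sites (5.23% of the joined sites), and 1083 (4.14%) were in all 4 IDH1 R132H lists and no IDH1 WT list.

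The strongest sites of the shared core stood at or close to a ceiling in every list. Since at most 1 read per position and strand was counted, no summit could exceed 2 reads per base of the fragment, and the 5 sites with the best mean rank sat at or near the highest fold of each list: chromosome 3 at 93470582, chromosome 16 at 10972, chromosome 2 at 242182152, and chromosome 1 at 248944546 and at 11280. At the chromosome 16 end the fold over background was 59.7, 56.7, 53.8 and 62.7 in IDH1 WT and 117, 117, 99.5 and 96.7 in IDH1 R132H. The IDH1 R132H folds are all higher, over a background of 1.06 to 1.62 reads against 4.05 to 5.38 in IDH1 WT. The 4 of these sites outside chromosome 3 are 87.8% to 99.5% identical to one another over the 200 bp at the summit, and lie near chromosome ends.

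Nearly every site of 1 genotype's top lists was a peak of the other genotype as well, only lower in its ranking. Of the 1368 sites of IDH1 WT, 1334 had a summit in at least 1 full IDH1 R132H list, with a median rank of 26410 there against 14912 in IDH1 WT. Of the 34 without, 29 lay inside a wider peak of every IDH1 R132H list and 3 in no peak of any. Of the 1083 sites of IDH1 R132H, 1009 had a summit in some IDH1 WT list (median rank 25061 against 15676), and of the 74 without, 73 lay inside a wider peak of every IDH1 WT list and 0 in no peak of any. The IDH1 WT group lay more often at promoters (23.8% against 5.17%), was richer in G and C (55.9% against 42.8%) and held fewer sites in satellite-like tandem repeats (0.146% against 17.6%), as a description of groups that the rankings themselves defined.

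At sites with a summit in all 8 lists and outside tandem repeats, the strongest of these WT-ranked sites were in TTC28, 646 bp from its start, 67.5 kb from L3MBTL4, in LINC02204, in JUP, which encodes the junction protein plakoglobin, and in DLL4, a Notch ligand. The JUP site had folds of 50.8, 36.7, 50.1 and 58.5 in IDH1 WT and of 7.14, 7.75, 10.5 and 11.1 in IDH1 R132H, so the groups stood far apart. On the R132H side they lay 37.1 kb from RUNX3, a Runt-family transcription factor, near CYTH4 and ZNF521, in ITPR2, which encodes an inositol trisphosphate receptor, and 131.1 kb from SRRM4, a neural splicing regulator whose sequence is given above. The SRRM4 site had folds of 18.7, 14.5, 16.6 and 15.7 in IDH1 WT and of 45.7, 50.4, 47.6 and 52.0 in IDH1 R132H, again without overlap. Their rankings chose these sites, so they carry no test here.

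**Figure D1:**
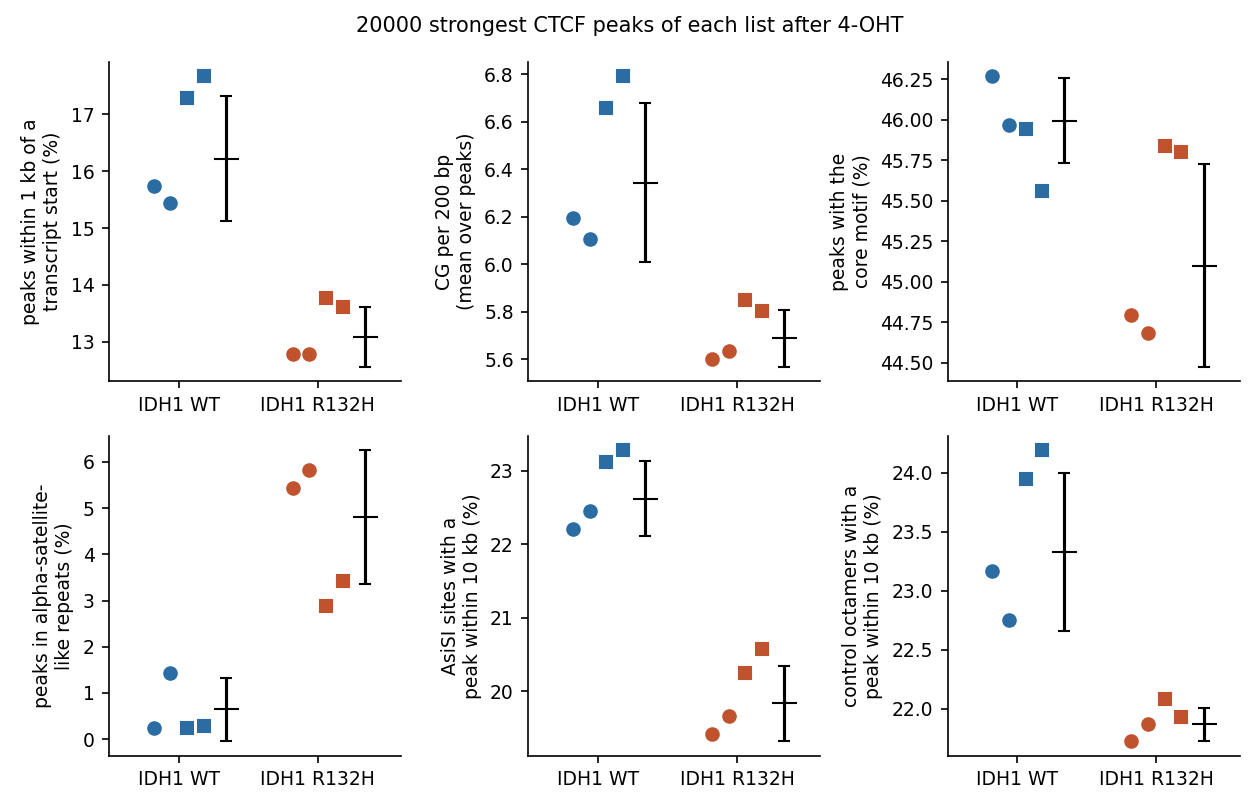
The 20000 strongest CTCF peaks of each list after 4-OHT, with 1 panel for each measure (percent of peaks, CG per 200 bp, or percent of AsiSI or control octamers), points for the 4 lists of each genotype in the order of replicates 1 to 4 (squares for replicates 3 and 4, counted as 1 sample) and a bar for mean ± SD of 3 samples. The genotypes do not overlap for promoters, CG content, tandem repeats, AsiSI sites and control octamers, and overlap for the core motif.

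Promoters held a smaller share of the strong peaks in IDH1 R132H. Summits within 1 kb of the start of a protein-coding transcript made up 15.7%, 15.4%, 17.3% and 17.7% of the 20000 in IDH1 WT and 12.8%, 12.8%, 13.8% and 13.6% in IDH1 R132H, a mean of 16.2% ± 1.10 (SD, n = 3) against 13.1% ± 0.528 (SD, n = 3). Every IDH1 WT list lay above every IDH1 R132H list, and the difference of -3.14 percentage points reached the smallest p the design allows (two-sided exact permutation test, p = 0.1, and 0.138 after adjustment over 18 such tests). Intergenic peaks moved the other way, from 35.2% ± 0.624 to 39.8% ± 1.20, and exons from 7.03% ± 0.0584 to 6.46% ± 0.0714 (SD, n = 3 each, exact permutation p = 0.1 each, adjusted 0.138). Introns held 41.5% ± 0.614 and 40.7% ± 0.607 (SD, n = 3), with overlap (exact permutation p = 0.2). With peaks in tandem repeats left out, a choice made after seeing the data, intergenic peaks made up 34.3% to 35.03% in IDH1 WT and 36.3% to 36.9% in IDH1 R132H, and introns 40.7% to 42.4% and 42.7% to 42.8%, so the gap of intergenic peaks was narrower and introns lay higher in IDH1 R132H.

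The summits also differed in base composition. There were 6.34 ± 0.335 CG in the 200 bp around a summit in IDH1 WT and 5.69 ± 0.120 in IDH1 R132H, and 51.9% ± 0.824 and 49.9% ± 0.315 G and C (SD, n = 3, both without overlap, exact permutation p = 0.1, adjusted 0.138). Peaks with the core motif made up 46.3%, 46.0%, 45.9% and 45.6% in IDH1 WT and 44.8%, 44.7%, 45.8% and 45.8% in IDH1 R132H, which overlap (difference -0.895 points, exact permutation p = 0.2). Once the peaks in tandem repeats were left out, a choice made after seeing the data, the sign turned to 1.17 points. The shares were then 45.7% to 46.7% in IDH1 WT and 47.3% to 47.6% in IDH1 R132H, without overlap. A CG was counted at the second base of the core or across its last base and the next, and not elsewhere in it. Of the peaks with a motif, 44.4% ± 0.442 and 44.4% ± 0.200 (SD, n = 3) had a core with such a CG (exact permutation p = 1). This share depended on the size of the lists, with a difference of -2.54 points among the 10000 strongest peaks and of 3.60 points among 50000 (exact permutation p = 0.1 each). A CG at the second base of the core was in 11.6% ± 0.263 of them in IDH1 WT and 10.9% ± 0.168 in IDH1 R132H, without overlap (SD, n = 3, exact permutation p = 0.1, adjusted 0.138).

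Site by site, many strong sites differed by a little. Sites among the 20000 in at least 2 of the 6 samples, 23579 in all, were tested with limma on log2 of the fold after the lists had been set to a common distribution (quantile normalization), so a difference is of a site's standing within its list and not of absolute occupancy. At an adjusted p of 0.05, 5626 sites (23.9%) were higher in IDH1 R132H and 5631 (23.9%) lower, a near even split. Centring each list on its median instead put 9303 higher and 6135 lower, or 60.3% of the calls higher, with the median of all sites at 0.17 in place of 0.03. The median size of a called difference was 0.62 and the smallest 0.08 on the log2 scale, and with a fold of at least 2 there remained 1402 sites higher (5.95%) and 1764 lower (7.48%). Just inside the threshold was a site on chromosome 9 at 122991510 (difference 0.46, adjusted p = 0.0499995) and just outside 1 on chromosome 2 at 60560947 (0.28, adjusted p = 0.0500072).

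The 10 largest differences in each direction were all places where the genotypes put the summit at another spot of the same wide peak. None of these 20 sites had a summit in all 8 lists, and all 20 lay inside a wider peak in the lists that lacked one. Near KRT17, a keratin gene, the summit stood at 41648780 on chromosome 17 in the 4 IDH1 WT lists (folds 58.3, 50.5, 53.8 and 62.4) and at 41648092 in the 4 IDH1 R132H lists (72.8, 74.6, 84.3 and 78.7). Beside IGFBP3, which encodes a binding protein of insulin-like growth factors, it stood at 45922348 on chromosome 7 in IDH1 WT and at 45923392 in IDH1 R132H. In an intron of PDGFRA, a growth factor receptor gene, it stood at 54233482 on chromosome 4 in IDH1 WT and at 54234444 in IDH1 R132H, with differences of -4.81 and 4.82 on the log2 scale. In such a pair the summit changed place inside a peak that the lists of both genotypes held. The others of these sites lay in or near VWF, PIGO, KRT8, AKR1E2, PARD3, CYCS, BUD13, NEMF, TUBB8B, EMB, FRG2B and H3-7 and in an unnamed transcript of chromosome 21. In all, 3623 of the 3868 values without a summit at tested sites lay inside a wider peak, at 1332 sites.

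The differences that are of strength were therefore sought, after these values had been seen, among the 21339 tested sites with a summit in all 8 lists and outside tandem repeats. There, 4679 were higher and 5379 lower in IDH1 R132H, and by at least 2-fold 515 higher and 1516 lower. When these sites were normalized and fitted on their own, 5899 were higher and 5405 lower.

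Among the 10 that were lowest in IDH1 R132H, the sequence was 54.0% to 86.5% G and C and 3 lay within 250 bp of a gene start. The site 226 bp from the start of TACR1, the substance P receptor gene, on chromosome 2 at 75199746, had folds of 35.0, 24.4, 41.6 and 45.1 in IDH1 WT and of 5.23, 3.88, 4.68 and 5.35 in IDH1 R132H (difference -3.37 ± 0.307 SE on the log2 scale, limma, adjusted p = 0.000713). In NPEPL1, an aminopeptidase-like gene, 94 bp from its start on chromosome 20 at 58692706, they were 43.1, 34.5, 45.6 and 51.9 against 3.33, 4.36, 8.58 and 8.02 (difference -3.56 ± 0.394 SE, limma, adjusted p = 0.00112). In DVL1, a dishevelled gene of the Wnt pathway, on chromosome 1 at 1344790, they were 30.3, 19.8, 36.8 and 42.3 against 3.81, 2.91, 5.07 and 4.59 (difference -3.27 ± 0.365 SE, limma, adjusted p = 0.00116). At each of these the lowest IDH1 WT list was replicate 2 and still stood well above the highest IDH1 R132H list. The largest difference, -3.66, was 43.6 kb from DMRT2, a DM-domain transcription factor gene. The remaining 6, with differences from -3.58 to -3.26, lay in SNTG1, in a coding exon of GRID2IP, 59.1 kb from MRPS6, in TMEM63C, 38.0 kb from TRIP13 and in an untranslated exon of ADCYAP1R1, the PACAP receptor gene, 102 bp from its start.

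Among the 10 that were highest in IDH1 R132H, none carried the core motif and many were copies of one another. The site 3.3 kb from TMCO3, on chromosome 13 at 113557850, had folds of 3.14, 3.57, 2.98 and 4.19 in IDH1 WT and of 38.1, 39.2, 20.3 and 25.6 in IDH1 R132H (difference 2.91 ± 0.319 SE, limma, adjusted p = 0.00109). In an intron of WEE2-AS1 on chromosome 7 at 141731810, they were 3.29, 4.76, 4.61 and 4.02 against 35.2, 34.4, 19.1 and 28.7 (difference 2.76 ± 0.298 SE, limma, adjusted p = 0.00106). The groups were apart by several fold at both, and replicate 3 was the lowest IDH1 R132H list. The others, with differences from 2.73 to 2.46, lay in TRERF1, 28.3 kb from ZNF521, 14.9 kb from NECTIN1, a cell adhesion gene, 15.6 kb from ZHX2, 170.7 kb from LMLN, in LINC01002, in LINC01347 and 47.3 kb from OR4F3. Over the 200 bp at the summit, 13 pairs of these sites were 81.5% to 99.5% identical, and the last 4 named, counting back from OR4F3 to the site near LMLN, formed a group in which every pair was at least 88.9% identical. No pair of the 10 lowest sites came above 49.3%. How reads were shared between such copies was not tested, so these sites are uncertain.

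**Figure D2:**
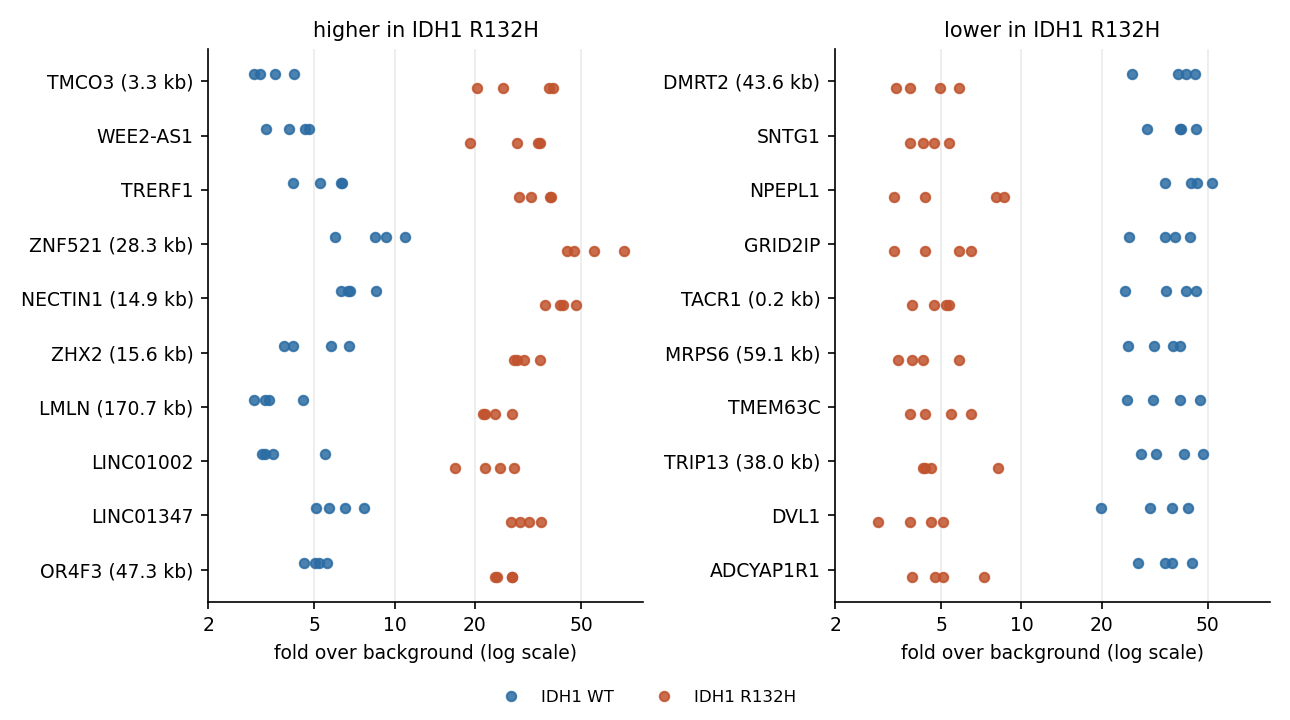
Fold over background (log scale) in each of the 8 lists at the 10 sites most higher and the 10 most lower in IDH1 R132H among sites with a summit in every list, named by the gene they lie in or the nearest protein-coding gene with its distance. At each site the 4 IDH1 WT points and the 4 IDH1 R132H points are apart.

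The same contrast held over the whole groups. Of the 515 sites at least 2-fold higher in IDH1 R132H, 48.9% shared a run of 20 bases with another tested site over 10 kb away, against 16.8% of the 1516 lower ones and 28.9% of the 21339. A core motif was at 30.7% of the higher and 36.5% of the lower sites against 46.0% in all, and a promoter at 5.24% and 26.1% against 14.7%. The G and C content was 45.6% and 57.2% against 50.8%. These are descriptions of sets that the fit itself chose.

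Alpha-satellite-like tandem repeats, arrays of a short unit repeated head to tail as at centromeres, stood higher in the IDH1 R132H lists. A site was placed in this class when its surrounding 1000 bp matched itself at 40% or more of bases after a shift by about the length of an alpha-satellite unit. Windows 10 kb from the tested sites met this rule at 4.35%, but they can lie in the same array and are no genome-wide background. Of the tested sites, 980 (4.16%) met it. Of these, 750 (76.5%) were higher in IDH1 R132H and 9 lower, with a median of 1.25 on the log2 scale (0.97 after correction for GC content and 1.15 with median centring), and they were 694 of the 1402 sites higher by at least 2-fold. Their median fold was 9.09, 15.1, 8.18 and 8.21 in IDH1 WT and 21.9, 22.8, 19.1 and 20.6 in IDH1 R132H, and their median rank fell outside the top 20000 in every IDH1 WT list and inside it in every IDH1 R132H list. Among the 20000 strongest were 45, 281, 45 and 54 of the 980 in IDH1 WT and 888, 886, 561 and 663 in IDH1 R132H, so most of them entered the tested sites through the lists in which they were strong, and their count and median are a description. On chromosome 10 were 202 of them, 111 between 40 and 41 Mb, and chromosomes 5, 1, 4 and 19 held 116, 108, 104 and 103. A further 81 sites with at least 5 copies of GGAAT or its complement in 200 bp had 20 higher and 3 lower. The rule for tandem repeats also admits arrays of shorter units, as at the site near EMB, which held 24 such copies. Others lay by a chromosome end, as at 10065 on chromosome 1, so the class is not only of centromeres.

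**Figure D3:**
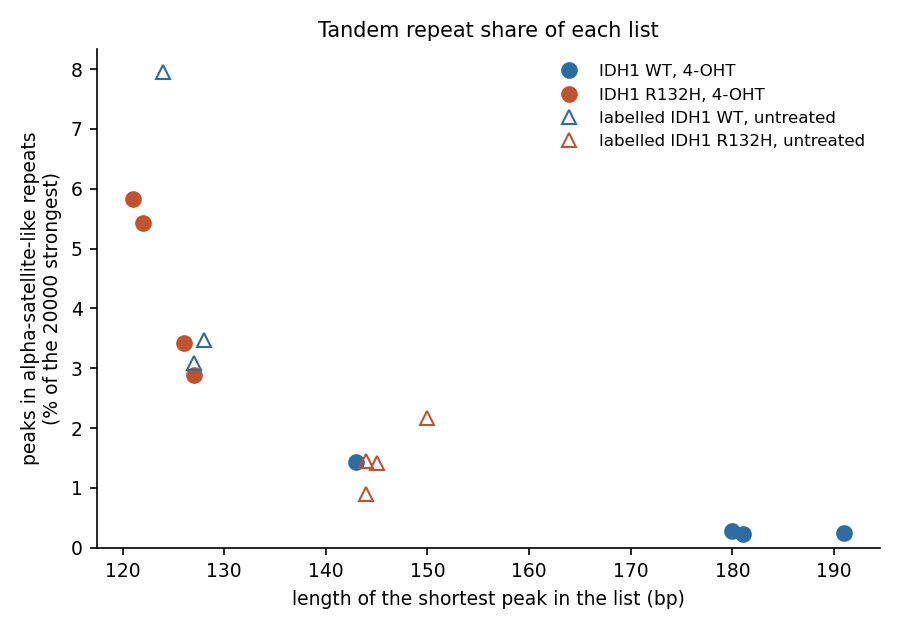
Share of the 20000 strongest peaks that lie in alpha-satellite-like tandem repeats (y axis, percent) against the shortest peak of the list (x axis, bp), 1 point for each of the 8 lists after 4-OHT (circles) and the 7 untreated lists (triangles). The 4 IDH1 R132H lists hold 2.89% to 5.84% at 121 to 127 bp, and among the IDH1 WT lists after 4-OHT the highest share, 1.44%, is that of the list with the shortest fragments.

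The share of tandem repeat peaks was higher after 4-OHT in the genotype whose lists had the shorter fragments. It was 0.24%, 1.44%, 0.235% and 0.275% in IDH1 WT and 5.43%, 5.84%, 2.89% and 3.43% in IDH1 R132H (mean 0.643% ± 0.686 against 4.81% ± 1.44, SD, n = 3, exact permutation p = 0.1, adjusted 0.138). In the untreated lists it was 7.95%, 3.09% and 3.48% in those labelled IDH1 WT, with the short fragments, and 0.9%, 2.17%, 1.42% and 1.45% in those labelled IDH1 R132H, among which the order did not follow fragment length. The part of fragment length and depth in this result was not tested. Folds in these repeats are over 1 background for a whole list and not over input at the same place.

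Base composition divided the calls over all tested sites, those in tandem repeats included. Of sites under 40% G and C, 45.4% were higher in IDH1 R132H and 7.13% lower (median 0.36 on the log2 scale). Of those at 70% and over, 3.65% were higher and 49.2% lower (median -0.31), and the bins between lay in order. Among the 3409 promoter sites 8.01% were higher and 42.6% lower, with a median of -0.21, while intergenic sites had 31.2% higher and 17.1% lower. After each list had been corrected for GC content, a step added after seeing the data, promoters came to 807 higher and 965 lower with a median of -0.02. The corrected median was 0.05 over all tested sites, 0.01 at exons and introns and 0.12 at intergenic sites. The promoter shift was thus smaller, but promoters still had the lowest median of the gene contexts. Over all sites the correction left 5914 higher and 5330 lower, and 7963 of the 11257 calls stood in the same direction and 56 in the other. Across the 23579 sites, which share their 8 libraries, the difference followed GC content with r = -0.32 and the number of CG with r = -0.20.

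**Figure D4:**
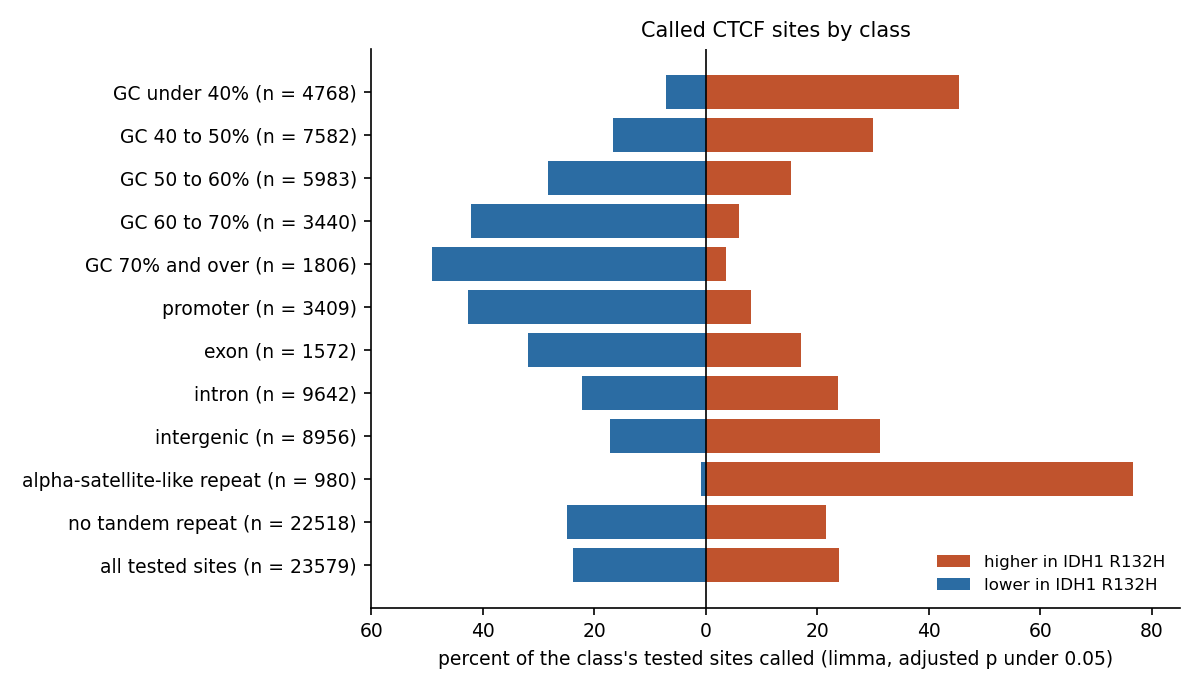
Percent of tested sites called higher (to the right) or lower (to the left) in IDH1 R132H by limma at an adjusted p under 0.05, for classes of GC content in 200 bp, gene context and tandem repeats. GC-poor sites and tandem repeats lean to IDH1 R132H, and GC-rich sites and promoters to IDH1 WT.

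The sites were also grouped by a CG in their core motif, the base pair through which methylation can act on CTCF. It was counted at the second base of the core or at its end, across the last base and the next. A CG elsewhere in the core was not counted. Sites whose core held a CG at both places had 9.04% higher and 34.2% lower, and those with a CG at the end 22.03% and 21.3%. Those with a CG at the second base had 16.1% and 28.5%, and those with a CG at neither place 24.9% and 21.9%. These classes differ in GC content, and within each of the 5 bins the share that was lower was smaller in each of the 3 classes with a CG than in that without, as a description in which the class with a CG at both places had 4 sites under 40% G and C. At 40 to 50% G and C, sites with a CG at the end of the core had 39.9% higher and 5.17% lower. Those with a CG at neither place had 29.3% and 16.1%. At 60 to 70%, the figures were 7.54% and 34.3% with a CG at the end and 4.52% and 42.8% without. Sites with a CG at both places had 6.56% lower at 40 to 50% and 36.02% at 60 to 70%. DNA methylation was not measured in these libraries.

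The share of calls was also counted by chromosome. At sites with a summit in all 8 lists and no repeat, chromosome 8 had 49.6% higher and 10.4% lower (median 0.24 on the log2 scale, 0.23 corrected for GC and 0.35 with median centring, where all such sites had a median of 0.13). Chromosome 4 had 36.4% and 11.6%, chromosome 13 34.8% and 10.4%, and chromosome X 39.6% and 9.26%, though with median centring the X median of 0.11 fell below that of all sites. Chromosome 17 had 10.2% higher and 42.0% lower, with medians of -0.12, -0.05 corrected for GC and 0.07 with median centring. Copy number in these cells was not measured here.

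Near AsiSI sites fewer strong peaks were found in IDH1 R132H, and near control octamers as well. Of the 1220 AsiSI sites on chromosomes 1 to 22 and X, 22.2%, 22.5%, 23.1% and 23.3% had 1 of the 20000 strongest peaks within 10 kb in IDH1 WT and 19.4%, 19.7%, 20.2% and 20.6% in IDH1 R132H (mean 22.6% ± 0.512 against 19.8% ± 0.512, SD, n = 3). The lists did not overlap, and the difference was -2.79 points (exact permutation p = 0.1, adjusted 0.138). For 5349 control octamers with the same bases as the AsiSI sequence in another order, the shares were 23.3% ± 0.674 and 21.9% ± 0.140, a difference of -1.46 points (SD, n = 3, exact permutation p = 0.1, adjusted 0.138). Within 1 kb the AsiSI shares were 5.52% ± 0.404 and 4.32% ± 0.263 (SD, n = 3, exact permutation p = 0.1), and within 100 kb 75.2% ± 0.329 and 74.8% ± 0.466, which overlap (SD, n = 3, exact permutation p = 0.3).

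The strength of the tested sites beside AsiSI sites was compared as well. Of 344 within 10 kb, 44 were higher in IDH1 R132H and 123 (35.8%) lower, with a median of -0.09, and of 1452 beside control octamers 203 were higher and 481 (33.1%) lower, with a median of -0.07. Relative to the mean of all tested sites, those beside AsiSI sites stood at 0.22 ± 0.01 in IDH1 WT and 0.00 ± 0.02 in IDH1 R132H on the log2 scale (SD, n = 3), a difference of -0.22 without overlap (exact permutation p = 0.1). After correction for GC content the difference shrank to -0.11, still without overlap (exact permutation p = 0.1). Of the 86 that were also promoters, 7 were higher and 43 (50%) lower, beside 21 higher and 196 (47.7%) lower of the 411 promoter sites near control octamers and 42.6% lower of all promoter sites.

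Single sites beside AsiSI sites differed in either direction. The largest differences among those with a summit in at least 7 lists were lower in IDH1 R132H near HTR1B, a serotonin receptor gene (-3.27), in PNLIPRP2 (-3.06), in C14orf39 (-2.99) and near SDK2 (-2.69), where the summit lay 287 bp from the AsiSI site. The PNLIPRP2 site had folds of 37.5, 25.2, 36.4 and 44.03 in IDH1 WT and of 2.85, 7.27, 5.07 and 5.73 in IDH1 R132H, without overlap. Higher were the site near TMCO3 described above, 9572 bp from an AsiSI site, and 1 in the protocadherin gamma cluster (1.46 ± 0.251 SE, limma, adjusted p = 0.004), with folds of 15.5, 10.1, 13.97 and 12.1 against 23.8, 21.3, 32.4 and 27.1. The pair in IGDCC4 and the sites near NEURL3 and TLCD5 had no summit in most lists of the other genotype.

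At the 2 breaks studied in detail, placed by exact matches of the primers designed for them, few strong peaks lay close by. The paper prints other coordinates for both breaks, and whether the places matched here are the same AsiSI sites was not tested. DSB1 lies at chr1:88992913-88992920, in an exon outside the coding part of KYAT3 and RBMXL1, and had 2 strong peaks within 10 kb in 7 lists and 1 in IDH1 WT replicate 2. The peak 5951 bp away, on chromosome 1 at 88998868, had folds of 31.5, 17.0, 29.4 and 29.5 in IDH1 WT and of 23.8, 29.1, 33.6 and 32.5 in IDH1 R132H, which overlap on that scale, and was called higher after normalization (0.48 ± 0.142 SE, limma, adjusted p = 0.029). The peak in KYAT3 and RBMXL1, 8897 bp away, was not called (0.15 ± 0.126 SE, limma, adjusted p = 0.36). DSB2, at chr20:32358509-32358516 in an exon outside the coding part of ASXL1, had no strong peak within 100 kb in any list. Within 1 Mb of DSB1, 8 of 23 tested sites were higher and 4 lower, and within 1 Mb of DSB2 5 of 31 were higher and 7 lower, beside 23.9% in each direction over all tested sites.

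The genes that write and erase cytosine methylation held more lower sites than higher ones. Within 10 kb of the 12 genes of that list were 12 tested sites, of which 1 was higher and 6 (50%) lower in IDH1 R132H, with a median of -0.46 on the log2 scale, against 23.9% lower and a median of 0.03 over all tested sites. The site 9387 bp from the start of TET1, the dioxygenase gene, had folds of 32.4, 21.8, 31.9 and 34.4 in IDH1 WT and of 8.09, 9.21, 12.5 and 12.6 in IDH1 R132H (-1.23 ± 0.196 SE, limma, adjusted p = 0.003), without overlap. In an intron of DNMT3B, a de novo methyltransferase gene whose core motif is shown above, they were 50.6, 39.6, 46.9 and 54.0 against 20.0, 21.8, 31.6 and 30.6 (-0.9998 ± 0.098 SE, limma, adjusted p = 0.001). At the start of DNMT3A, its paralogue, the difference was -0.74, and outside the naming rule, named after their values were seen, were a further DNMT3A site (-0.66), a site at IDH1 (-0.62) and the higher site at TET2 (0.51). After GC correction the list again had 1 higher and 6 lower.

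The sites at repair and signalling genes are read against the 23.9% in each direction over all tested sites. Of 21 sites at homologous recombination genes 2 were higher and 3 lower (median 0.01), with -0.72 ± 0.160 SE in RBBP8, which encodes the resection factor CtIP (limma, adjusted p = 0.011). Other sites at RBBP8, outside the naming rule, were not called (0.15, 0.01 and 0.20). Of 12 sites at break signalling genes 1 was higher, in ABHD13 beside LIG4, the ligase of end joining (0.71), and 4 were lower. Those included the start of ATM, the kinase that answers breaks, with folds of 42.3, 25.4, 43.97 and 51.9 in IDH1 WT and of 20.5, 19.4, 28.1 and 31.0 in IDH1 R132H (-0.61 ± 0.160 SE, limma, adjusted p = 0.018). IDH1 WT replicate 2 fell among the IDH1 R132H values on that scale. The site in CDKN1A, the p53 target gene for a kinase inhibitor, differed by -0.57 ± 0.071 SE (limma, adjusted p = 0.002). At the CTCF and cohesin genes 3 of 29 sites were higher and 7 lower (median -0.02), the largest with a summit in every list in CTCFL, the testis paralogue of CTCF (-2.14). Of the 3 YY1 sites, 2 had summits that changed place.

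Imprinted and homeobox genes included sites that were several fold lower. Of 21 sites at imprinted genes 3 were higher and 8 (38.1%) lower, with a median of -0.03. In IGF2R, the gene of a receptor that clears IGF2, the folds were 32.0, 17.2, 31.9 and 33.9 in IDH1 WT and 7.14, 5.33, 5.46 and 3.82 in IDH1 R132H (-2.40 ± 0.435 SE, limma, adjusted p = 0.005), and at PLAGL1, a zinc finger gene, 2 sites differed by -2.20 and -2.06. Of 23 sites in the HOX clusters 3 were higher and 9 (39.1%) lower, with -1.71 at HOXA3 and HOXA4 and -1.66 in HOXC10. After GC correction the imprinted list had 5 higher and 5 lower and the HOX list 9 higher and 5 lower, so neither lean outlasted it. Beside PDGFRA the neighbouring gene KIT, a receptor tyrosine kinase gene, had a site with folds of 27.7, 22.99, 30.01 and 29.2 against 7.61, 8.72, 9.36 and 10.3 (-1.35 ± 0.214 SE, limma, adjusted p = 0.003). Of the 6 sites at the genes discussed for IDH-mutant glioma, 1 was higher and 3 lower, and 2 of the called sites are the PDGFRA summits that changed place.

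Markers of cell lineages were counted as well, beside the same 23.9% in each direction. Of 16 sites at osteoblast genes, the lineage of U2OS, 6 were higher and 2 lower (median -0.03), or 5 and 2 of the 14 with a summit in every list and outside tandem repeats. Of 6 at glial genes 1 was higher and 3 lower, with -2.72 near OLIG2 and -1.83 in MBP, and of 5 at haematopoietic genes 0 were higher and 2 lower, by at most 0.41. These counts are of binding sites and not of expression.

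The untreated lists gave the opposite difference when grouped by their labels. Of the 5626 sites higher in IDH1 R132H after 4-OHT, 96.9% were lower in the untreated lists labelled IDH1 R132H (median -0.38), and of the 5631 lower ones 97.0% were higher there (median 0.53). Over the 23579 sites the log2 differences with and without 4-OHT had r = -0.78, in libraries whose depth and fragment length change with them. The lists of IDH1 R132H with 4-OHT correlated across sites with the untreated lists labelled IDH1 WT at r = 0.79 to 0.84 and with those labelled IDH1 R132H at 0.42 to 0.61, and the lists of IDH1 WT with 4-OHT at 0.33 to 0.47 and 0.64 to 0.81. The run names inside the untreated lists name the other genotype than their labels, and the depth and fragment length of those lists go with the run names. All comparisons above use labels, and among the 8 lists with 4-OHT label and run name are the same.

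**Figure D5:**
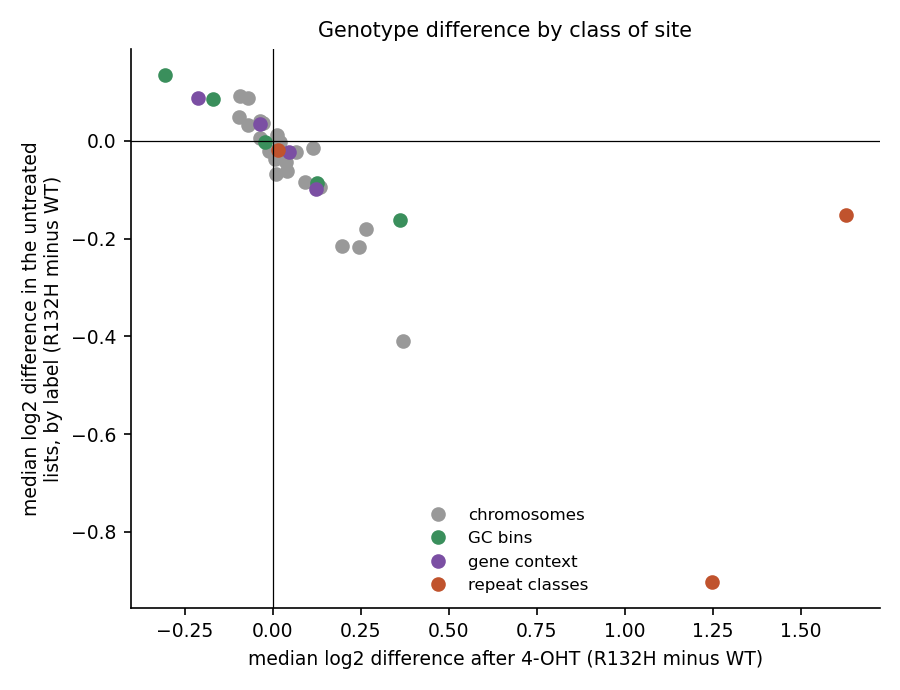
Median log2 difference between IDH1 R132H and IDH1 WT in the untreated lists, by label (y axis), against that after 4-OHT (x axis), 1 point for each chromosome, GC bin, gene context or repeat class. Classes that were higher after 4-OHT, such as GC under 40% (0.36 against -0.16), were lower without it by label.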

How the data were processed

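The authors mapped reads to GRCh38 (hg38) with Bowtie2 and called CTCF peaks with MACS2 in each sample, with input as control. The submitters' processing notes name cutadapt 1.18 and Bowtie2 2.3.4.1, and the methods name another version of Bowtie2. For every peak the deposited files give a fold over background (a ratio), a −log10 p-value, a −log10 q-value and a score. The values show a fold of summit reads plus 1 over a background plus 1, with 1 background for a whole list, from which reads and depth were estimated. A fold is thus not set against input at the same place. The authors' −log10 values and the deposited score were used only to recover reads.

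The members and gene lists were chosen with earlier results of these data known. Within chromosomes 1 to 22 and X, the 20000 peaks of highest fold per list were joined at 100 bp. A site's value in a list is the highest fold of any peak with its summit within 100 bp, or the list's lowest fold. Replicates 3 and 4 were averaged, since a chi-square test of their reads at shared summits found no more than sampling noise, in summits of 20 to 50 reads (ratio 0.49 in IDH1 WT, 0.999 in IDH1 R132H) and of 50 to 100 (0.70 and 0.85). No other pair passed in both bands: IDH1 WT replicate 1 against 3 and 4 gave 0.76 and 0.995 in the first and 1.89 and 2.29 in the second, and IDH1 R132H replicates 1 and 2 gave 1.06 and 0.882. Sites were tested with limma 3.58.1 (R 4.3.3, trend) on quantile-normalized log2 folds, with Benjamini-Hochberg adjustment at 0.05, and percentages with two-sided exact permutation tests in Python 3.11.15. Promoters, genes and motifs come from GENCODE release 44 and the GRCh38 sequence. In simulated data 68% of 100 sites changed by 1 and 84% of 100 changed by 2 (log2) were found, with 3.80% of 158 calls false. The simulation had far fewer changed sites than were called here and no difference in depth or fragment length. Its rates therefore do not carry over to the real calls.

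Sites named in the text are the 10 largest called differences in each direction without overlap between samples, the 5 strongest of each genotype's own sites and of the shared core, DSB1 and DSB2, and the 3 largest of each gene list. Because the first of these proved to be shifted summits, the same rule was applied again, after the values were seen, to sites with a summit in every list outside repeats. Sites beside AsiSI sites were ranked in the same way. Alternatives were the list size, joining distance, promoter distance, median centring, a peak in every list, every list as its own sample, leaving out each sample and a replicate block. Added after seeing the data were GC correction (lowess), a minimum fold of 2, IDH1 R132H replicates 1 and 2 as 1 sample, and leaving out repeats. The 4C-seq samples and the lists with a TET1 construct were not used here, and 1 site of a gene list is counted but not reported here.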

Additional observations from a re-analysis of the deposited data

Results flagged for a closer look

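For 15 of 17 measures of the 20000 strongest peaks the difference between the genotypes (R132H minus WT) changed with 4-OHT by more than the spread of the lists, in a two-sided exact permutation test of the genotype within each treatment (200 permutations, adjusted p under 0.05). The share of promoter peaks differed by -3.14 points after 4-OHT and by 1.95 points without it, a change of -5.09 (exact permutation p = 0.005, adjusted 0.00944, the smallest p the design allows). The share with a core motif changed by -2.65 points (exact permutation p = 0.01, adjusted 0.0131), the number of CG in 200 bp by -0.991 (exact permutation p = 0.005) and the share of AsiSI sites with a peak within 10 kb by -4.48 points (exact permutation p = 0.005). Intergenic peaks changed by 8.69 points, tandem repeat peaks by 8.28, G and C by -3.19 and the share of control octamers with a peak by -2.52 points (exact permutation p = 0.005 each). The share of cores with a CG (exact permutation p = 0.415) and that of AsiSI sites with a peak within 100 kb (exact permutation p = 0.285) missed the threshold. Labels and run names of the untreated lists give opposite genotypes, and a change with 4-OHT cannot be told apart from that.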

How the results depend on the processing

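The number of called sites was 5469 with the 10000 strongest peaks and 32044 with 50000, which also changes the number tested, and 3166 with a minimum fold of 2. It ranged from 8065 to 12185 when each sample was left out in turn, with 42.9% of the calls higher in IDH1 R132H without its replicate 1. The replicate numbers did not pair the samples (correlations of same-numbered deviations -0.003, 0.046 and 0.074), and with a replicate block 11181 sites were called. In the list results the block left the differences as they were, with an exact p of 0.25 (its smallest), 0.5 for the core motif and 1 for the share of cores with a CG. The shared core held 5886 sites at 10000 peaks and 26102 at 50000. With every list as its own sample the exact permutation p was 0.0286 for promoters (-3.30 points), CG at summits (-0.717), AsiSI peaks (-2.79 points) and strength beside AsiSI sites (-0.21). Promoters differed by -4.92 points at 10000 peaks, -7.89 at 50000 and -1.88 within 250 bp of a start, and AsiSI peaks by -12.7 at 50000. The core motif difference was -5.50 points at 50000 peaks and turned to 0.803 points at 10000 peaks and to 1.17 without tandem repeats, for which the cause was not tested, and ranged from -1.26 to -0.688 with samples left out. The share of cores with a CG turned to 3.60 points at 50000 peaks and ranged from -0.235 to 0.207 with samples left out (0.0900 without IDH1 R132H replicate 1). Leaving out samples gave -3.52 to -2.51 points for promoters, -0.774 to -0.464 for CG, -3.07 to -2.50 points for AsiSI peaks and -0.23 to -0.21 for strength. Of 626 values of named sites under the alternatives, 625 were in the same direction and past the threshold. These sites were called in the same lists, so the count is no independent test of them. Lower calls at gene lists did change with GC correction, from 4 to 2 at break signalling genes and from 3 to 5 at homologous recombination genes. Reads per summit are capped, which 0.91% to 13.3% of the strong peaks in IDH1 WT and 0.355% to 0.865% in IDH1 R132H come within 90% of, so differences among the strongest sites are limited in IDH1 WT.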
